A study of Mus musculus with 18 samples.

Results

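The 10 genes described here encode transcription factors and downstream effectors of the integrated stress response: Atf4, Atf3, Atf5, Ddit3, Cebpb, Cebpg, Asns, Trib3, Chac1 and Ppp1r15a. They were followed in RNA sequencing of mouse forelimb buds, as 11 of the 55487 gene rows in each library's count table, chosen because their Ensembl identifiers map to those 10 symbols. A second Ddit3 identifier held 0 counts in every library, and the other 10 rows all passed the filter on low counts. Mutants were Esco2fl/fl;Prrx1-CreTg/0 embryos and controls were Esco2fl/fl embryos without Cre, each sampled at the embryonic (E) days E9.5, E10.5 and, last, E11.5, with 3 libraries per group and 18 in all. All groups therefore carried floxed Esco2 (a gene for a cohesin acetyltransferase needed for sister chromatid cohesion), and Cre was present only in mutants, so the effects of Cre and of Esco2 loss cannot be told apart. Prrx1-Cre is active in limb mesenchyme, and the other cells of the bud keep Esco2. The labels speak of individual limb buds and give each library an identifier that opens with 1 of 12 numbers, whose meaning is not stated. A number was shared by E10.5 mutant replicates 1 and 2 with E10.5 control replicates 1 and 2, by E9.5 mutant replicate 1 with control replicate 2, by E11.5 mutant replicate 3 with control replicate 1, and by E11.5 control replicates 2 and 3. Libraries with a shared number may not be independent, so the p-values below speak of the spread among these libraries only. Fits with the number as a block are given where they changed a call among the 10 genes. Unless a random block is named, the label number as a block means a fixed block in only the 10 libraries that share a number. In that fit E9.5 and E11.5 each rest on 1 pair across genotypes.

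In the integrated stress response, kinases that sense amino acid shortage, misfolded protein, double-stranded RNA or lack of haem phosphorylate the translation initiation factor eIF2. General translation then falls, while the ATF4 mRNA is translated more. ATF4 is a bZIP transcription factor that pairs with C/EBP proteins on C/EBP-ATF response elements and raises genes of amino acid supply, tRNA charging and further transcription factors, among them ATF3 and CHOP (the product of Ddit3). Because ATF4 is controlled largely by translation and phosphorylated eIF2 is a protein state, transcript levels show only part of the pathway.

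Levels are CPM, the usual depth-scaled counts, on TMM-scaled library sizes, and changes are log2 values, mutant over control, with their standard error (SE). A gene is said to rise or fall only where its adjusted p was under 0.05 in edgeR's quasi-likelihood test over 20118 genes. Library totals ran from 35034237 to 56230058 counts. Esco2 itself was at 15.3, 17.8 and 19.8 CPM in E9.5 mutants, against 25.0, 28.1 and 27.2 CPM in E9.5 controls. Esco2 fell at E10.5 (log2 change -0.53 ± 0.14, adjusted p = 0.0200), and its change was -0.60 ± 0.14 at the earliest stage (0.162) and -0.26 ± 0.14 at the latest (0.238). Counts over all exons in a bud with cells that lack Cre check the deletion only weakly.

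A pair of libraries stood apart. Mutant E10.5 replicate 3 had 20132 CPM summed over 12 erythroid marker genes, against 6409 and 10016 CPM in the other E10.5 mutants. Control E9.5 replicate 1 had 22294 genes detected, the fewest of the 18 libraries, and the highest levels of Atf4, Atf5, Ddit3, Chac1 and Asns among the 18. Several of the results that rest on these libraries are also given without them.

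Per kilobase of exon, Atf4 was the highest of the 10 genes, with a mean level of 82.3 CPM per kb over the 18 libraries. Asns followed at 27.1, Atf5 at 19.1, Cebpg at 13.0, Ppp1r15a at 6.88 and Ddit3 at 3.64 CPM per kb. Atf3 at 2.25, Cebpb at 2.06 and Trib3 at 2.01 CPM per kb did not differ beyond their spread, and Chac1 was lowest at 0.311 CPM per kb. The library ranges of Asns (16.2 to 48.6) and Atf5 (15.9 to 26.8 CPM per kb) overlapped, as did those of Ppp1r15a (5.37 to 9.42) and Ddit3 (2.11 to 5.96 CPM per kb). The Ddit3 and Cebpg levels are lower bounds, because read pairs touching exons of 2 genes on the same strand were not assigned. The 105 exon bases of the second Ddit3 identifier lie inside exons of the first, and Cebpg shares 73 exon bases with Gm44836.

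**Figure D1:**
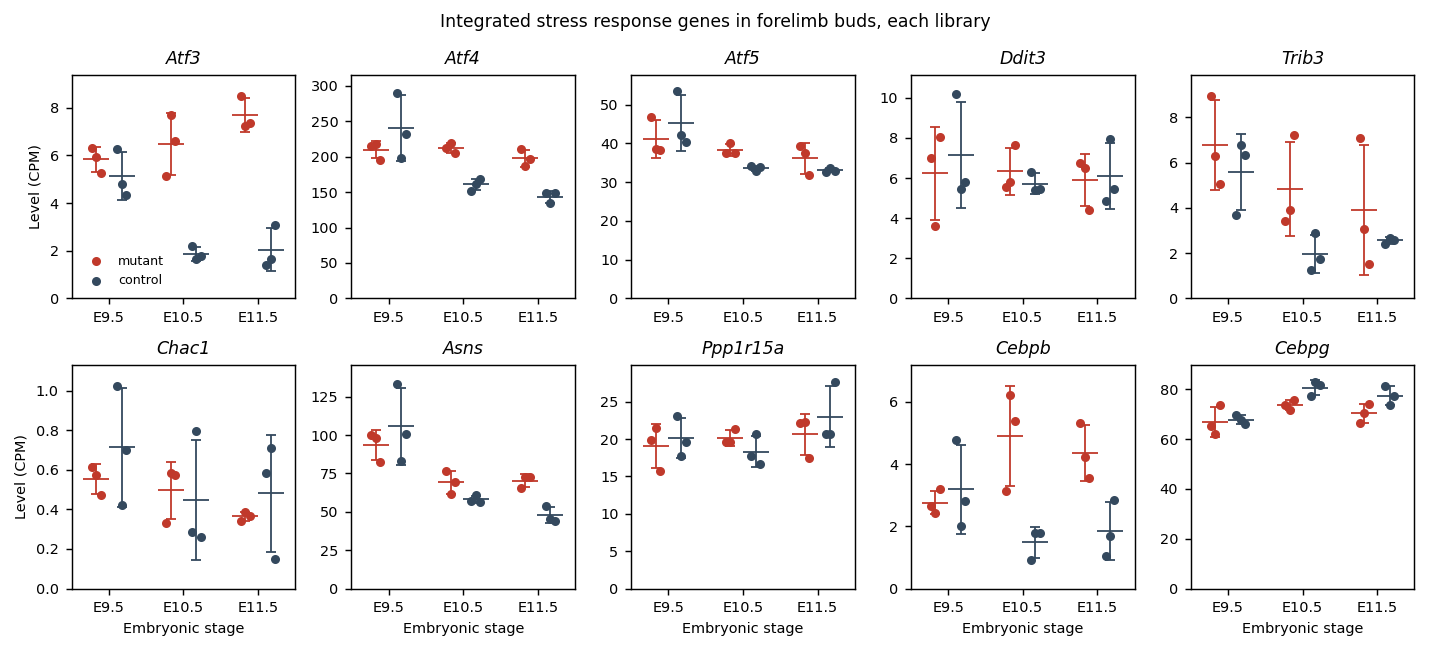
Level of each of the 10 genes in CPM (vertical axes, each from 0) at the 3 stages, 1 point per library, with the group mean and SD as bars, mutants in red left of controls in dark blue. Atf3, Atf4, Asns and Cebpb were higher in every E10.5 and E11.5 mutant than in every control of the same stage, and no gene separated the genotypes at E9.5.

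The 250 bases upstream of the RefSeq start (GRCm38.p6) are shown for the 4 genes that held a searched element there, since these elements are where ATF4 with its partners, or CREB and ATF proteins, are known to bind. The C/EBP-ATF response element was searched on both strands as TGATGNAA and the cAMP response element as TGACGTCA. Each sequence runs 5′ to 3′ on the gene's strand and ends at the base before the start, and the capitals mark the element found.
Atf3, chr1:191183334-191183583, minus strand: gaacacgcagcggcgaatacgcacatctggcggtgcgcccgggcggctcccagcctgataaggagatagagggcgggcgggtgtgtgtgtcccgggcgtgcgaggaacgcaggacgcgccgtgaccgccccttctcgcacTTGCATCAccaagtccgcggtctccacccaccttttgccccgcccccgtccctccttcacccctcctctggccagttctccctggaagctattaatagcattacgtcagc
Asns, chr6:7693210-7693459, minus strand: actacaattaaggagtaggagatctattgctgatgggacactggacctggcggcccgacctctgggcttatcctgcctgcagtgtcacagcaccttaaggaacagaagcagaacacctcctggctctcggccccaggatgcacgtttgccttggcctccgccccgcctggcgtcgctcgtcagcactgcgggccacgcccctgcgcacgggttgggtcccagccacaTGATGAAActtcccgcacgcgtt
Chac1, chr2:119350992-119351241, plus strand: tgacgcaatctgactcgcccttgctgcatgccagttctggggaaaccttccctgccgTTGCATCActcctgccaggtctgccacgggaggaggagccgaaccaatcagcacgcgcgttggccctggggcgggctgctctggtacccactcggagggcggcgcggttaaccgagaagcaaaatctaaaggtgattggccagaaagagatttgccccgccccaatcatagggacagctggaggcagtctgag
Ppp1r15a, chr7:45526269-45526518, minus strand: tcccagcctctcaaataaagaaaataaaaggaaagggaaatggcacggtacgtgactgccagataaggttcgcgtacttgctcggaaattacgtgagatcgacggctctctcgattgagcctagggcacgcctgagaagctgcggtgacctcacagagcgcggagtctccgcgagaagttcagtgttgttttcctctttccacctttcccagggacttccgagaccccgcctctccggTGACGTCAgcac
The C/EBP-ATF element began 110 bases before the start in Atf3, 23 in Asns and 193 in Chac1. It was held by 3 of the 11 windows of these genes (Atf5 has 2) and by 3.45% of 32851 RefSeq windows of the same length. The cAMP response element began 12 bases before the start of Ppp1r15a and was in 1.55% of windows. The C/EBP palindrome TTGCGCAA (0.164% of windows) and the ER stress response element (0.113% of windows) were in 0 of the 11. The windows of Atf3, Asns and Chac1 overlap longer transcripts of the same genes in GENCODE, so the distances hold for the RefSeq starts only. A match is a stretch of letters and not a binding site.

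At E9.5 none of the 10 genes differed between mutants and controls by edgeR's test, against 0.184% of all genes tested. None had an unadjusted p under 0.05, and DESeq2 and limma also called 0. Atf4 was at 214.9, 218.4 and 195.9 CPM in mutants and at 290.3, 198.1 and 232.5 CPM in controls, and the groups overlapped. The log2 change of Atf4 was -0.20, with a 95% confidence interval of -0.43 to 0.04. Atf3 was at 6.30, 5.94 and 5.27 CPM in mutants and at 6.26, 4.82 and 4.32 CPM in controls, with a log2 change of 0.19 (-0.35 to 0.72). The groups overlapped for all 10 genes, whereas over all genes mutants lay wholly above controls for 5.26% and wholly below for 3.61%. Without control E9.5 replicate 1, the values of Atf5, Ddit3, Asns, Ppp1r15a, Cebpb and Cebpg changed from below 0 to above 0, all of them uncalled.

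At E10.5, 3 of the 10 genes rose in mutants, against 7.3% of all genes tested, and at E11.5 4 rose, against 8.02%. None fell, against 6.63% of all genes at E10.5 and 9.52% at E11.5. The 3 were Atf3, Cebpb and Atf4, and the fourth at E11.5 was Asns. The median log2 change of the 10 genes was 0.22 at E10.5 and 0.30 at E11.5, against 0.018 and 0.014 over all genes. All libraries of mutants lay above all controls for 6 of the 10 genes at E10.5 (23.0% of all genes) and below for Cebpg (23.1%). At E11.5 they lay above for 4 (19.8%) and below for none (20.7%).

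**Figure D2:**
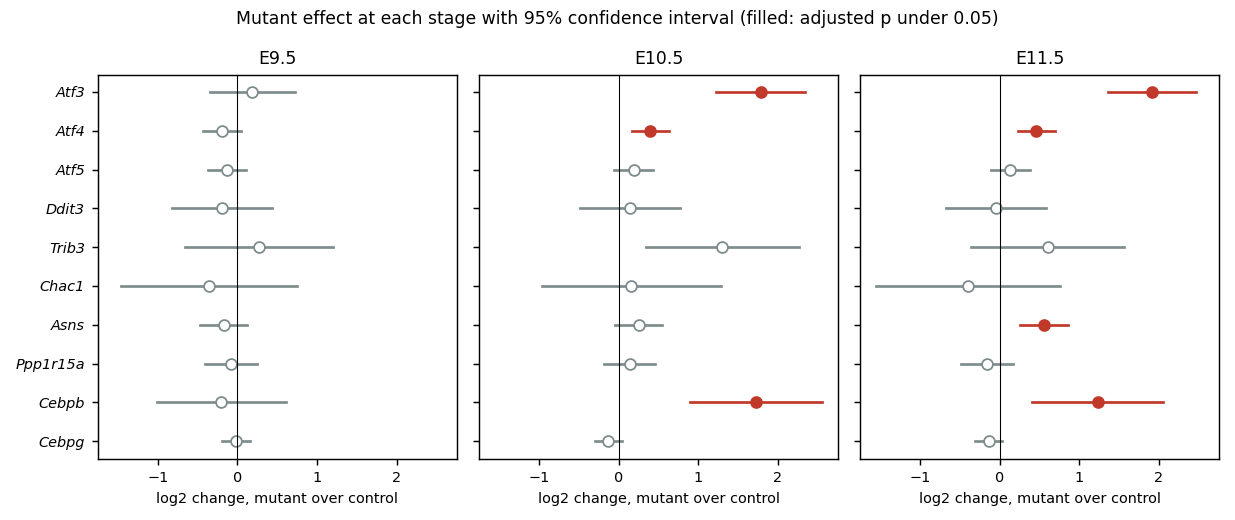
log2 change, mutant over control (horizontal axis), of each of the 10 genes at the 3 stages, with 95% confidence intervals from the edgeR fit, filled where the adjusted p was under 0.05. At E9.5 all intervals include 0. The largest values are those of Atf3 at E11.5 (1.91) and E10.5 (1.79) and of Cebpb at E10.5 (1.73).

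Atf4 (ENSMUSG00000042406.8, mm10 chromosome 15, 80255184 to 80257541), the central factor of the response, was at 212.3, 218.8 and 204.7 CPM in E10.5 mutants, against 151.9, 162.0 and 168.6 CPM in E10.5 controls. At E11.5 it was at 210.6, 186.4 and 196.3 CPM in mutants, against 148.7, 134.0 and 148.7 CPM in controls. The groups did not overlap at either stage, and the mutant levels at all 3 stages lay between 186.4 and 218.8 CPM. Atf4 was 1.32-fold higher in mutants at E10.5 (log2 change 0.40 ± 0.11, adjusted p = 0.0247) and 1.38-fold higher in E11.5 mutants (0.46 ± 0.11, adjusted p = 0.00864). The earlier call rested on the full set of libraries: it was lost without E10.5 control replicate 1 (adjusted p = 0.105) or 2 (0.0715) or without E10.5 mutant replicate 1 (0.0584), 2 (0.0842) or 3 (0.0579).

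Atf3 (ENSMUSG00000026628.13, chromosome 1, 191170296 to 191218039), a bZIP factor that ATF4 is known to induce and that p53 also induces, changed most. It was at 5.12, 7.70 and 6.60 CPM in E10.5 mutants and at 2.21, 1.64 and 1.77 CPM in E10.5 controls. In E11.5 mutants it was at 8.50, 7.22 and 7.37 CPM, against 1.38, 1.66 and 3.08 CPM in E11.5 controls. Every mutant library was above every control library by a margin wider than either group's range at E11.5. Atf3 rose 3.45-fold in mutants at E10.5 (log2 change 1.79 ± 0.26, adjusted p = 0.000244) and 3.77-fold at E11.5 (1.91 ± 0.26, adjusted p = 0.000119). Both calls held in all 29 alternative fits tried, with log2 changes of 1.64 to 1.93 at E10.5 and 1.70 to 2.41 at E11.5.

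Cebpb (ENSMUSG00000056501.3, chromosome 2, 167688915 to 167690418), a C/EBP factor that can pair with ATF4, was at 3.12, 6.21 and 5.39 CPM in E10.5 mutants, against 0.902, 1.77 and 1.77 CPM in E10.5 controls. At E11.5 it was at 5.33, 4.22 and 3.55 CPM in mutants, against 1.03, 1.69 and 2.86 CPM in controls. The groups did not overlap at either stage, and E11.5 control replicate 3 lay nearest to the mutants. Cebpb was 3.31-fold higher in mutants at E10.5 (log2 change 1.73 ± 0.39, adjusted p = 0.00729) and 2.35-fold higher at E11.5 (1.23 ± 0.39, adjusted p = 0.0373). The E11.5 call was lost without E11.5 control replicate 1 (adjusted p = 0.145) or 2 (0.112) or without E11.5 mutant replicate 1 (0.116), 2 (0.0703) or 3 (0.0534), and among the libraries that share a label number, with the number as a block (1.78, adjusted p = 0.104). The E10.5 call held in all 29 alternative fits.

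The other bZIP factors gave no call at E10.5 or E11.5. Cebpg, which encodes a C/EBP protein that pairs with ATF4, was at 73.8, 71.8 and 75.8 CPM in E10.5 mutants, against 77.3, 82.9 and 82.0 CPM in E10.5 controls (log2 change -0.13, 95% interval -0.30 to 0.04). At E10.5 every mutant was below every control for Cebpg, by less than the test could call. Atf5, which like Atf4 is controlled by translation, was at 37.6, 40.0 and 37.4 CPM in E10.5 mutants, against 34.1, 32.9 and 33.9 CPM in E10.5 controls (0.19, -0.05 to 0.43). Ddit3, whose product CHOP is tied to cell death after prolonged stress, was at 5.54, 5.79 and 7.67 CPM in E10.5 mutants, against 6.31, 5.39 and 5.46 CPM in E10.5 controls (0.15, -0.48 to 0.78). At E11.5 the log2 change of Ddit3 was -0.05 (-0.68 to 0.58), and its groups overlapped at all 3 stages.

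Among the effectors, Asns (ENSMUSG00000029752.12, chromosome 6, 7675169 to 7693254), which encodes asparagine synthetase, was at 65.2, 72.6 and 72.7 CPM in E11.5 mutants, against 53.8, 45.4 and 44.2 CPM in E11.5 controls. At E10.5 it was at 76.5, 61.7 and 69.3 CPM in mutants, against 56.9, 60.7 and 56.6 CPM in controls. The groups did not overlap at either stage, narrowly at E10.5. Asns was 1.47-fold higher in mutants at E11.5 (log2 change 0.55 ± 0.14, adjusted p = 0.0114), and its change at E10.5 was 0.25 ± 0.14 (adjusted p = 0.257). The E11.5 call was lost without E11.5 control replicate 2 (adjusted p = 0.0502) or 3 (0.0590) and with the label number as a block (0.43, adjusted p = 0.0806).

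Trib3, a pseudokinase gene induced by ATF4 and CHOP, was at 3.41, 3.88 and 7.24 CPM in E10.5 mutants, against 1.25, 2.90 and 1.73 CPM in E10.5 controls. The groups did not overlap, but replicate 3, the mutant library with the most erythroid transcript, was well above the other mutants. The log2 change was 1.31 ± 0.46 (adjusted p = 0.0680) and 0.90 without that library (adjusted p = 0.305). Trib3 was called in 4 of 29 alternative fits at E10.5, among them DESeq2 (adjusted p = 0.0226). At E11.5 it was at 7.09, 3.06 and 1.52 CPM in mutants, against 2.41, 2.69 and 2.59 CPM in controls, and the mutants spanned the controls. The uncalled E11.5 value of Trib3 lay below 0 with the label number as a block (-0.67, adjusted p = 0.436).

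Ppp1r15a, whose product GADD34 directs the phosphatase that removes phosphate from eIF2, was at 19.5, 19.6 and 21.3 CPM in E10.5 mutants, against 17.7, 20.7 and 16.6 CPM in E10.5 controls. Its log2 change was 0.14 (-0.19 to 0.46) at E10.5 and -0.16 (-0.48 to 0.17) at E11.5. Chac1, which encodes an enzyme that breaks down glutathione, was at 0.149 to 1.02 CPM in the 18 libraries. Its intervals were the widest of the 10 genes, -0.97 to 1.28 at E10.5 and -1.55 to 0.76 at E11.5. The groups of both genes overlapped at E10.5 and E11.5, and neither gene was called. The narrower intervals of Ppp1r15a bound its change more closely than those of Chac1 do.

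Whether the mutant effect itself differed between stages was tested by interaction contrasts. The mutant effect on Atf3 was larger at E10.5 than at E9.5 by 1.599 log2 units (adjusted p = 0.0302), 1 of the 10 genes against 0.925% of all genes tested in that direction. At E11.5 against E9.5 it was larger for Atf3 (1.73, adjusted p = 0.0116), Atf4 (0.66, adjusted p = 0.0227) and Asns (0.73, adjusted p = 0.0391), 3 of the 10 genes against 2.81%. For Cebpb the difference was 1.93 at E10.5 against E9.5 (adjusted p = 0.0729) and 1.43 at E11.5 against E9.5 (adjusted p = 0.116). Between E11.5 and E10.5 none of the 10 effects differed, with 0 at an unadjusted p under 0.05, against 0.0746% of all genes, and DESeq2 and limma also called 0. The Atf3 difference at E10.5 against E9.5 was not called without both libraries that stood apart (1.41, adjusted p = 0.0694), nor without any 1 of E9.5 mutant replicates 1 to 3, E10.5 mutant replicates 2 and 3 or E10.5 control replicates 2 and 3. The Asns difference was called in 14 of 28 alternative fits, with values of 0.18 to 0.87. The Atf4 difference was called in 24 of 28, with values of 0.30 to 0.78. Both use control E9.5 replicate 1, which had the highest Atf4 and Asns levels of the libraries. Their values without that library alone are not given here. The Atf3 difference of E11.5 against E9.5 was called in 27 of 28 alternative fits. In the remaining fit, with the label number as a fixed block in the 10 libraries that share it, none of the 4 differences was called. The Atf3 difference of E10.5 was then 1.36 (adjusted p = 0.449), and those of E11.5 were 2.04 for Atf3 (0.157), 0.30 for Atf4 (0.422) and 0.18 for Asns (0.776), each resting on 1 E9.5 pair.

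The stages were also compared within each genotype, a comparison that shares its libraries with those above. In mutants 1 of the 10 genes, Asns, fell between E9.5 and E10.5 (log2 change, E10.5 over E9.5, -0.44 ± 0.14, adjusted p = 0.0474, against 4.4% of all genes), a call held in 13 of 27 alternative fits. In controls 6 of the 10 genes fell (12.5% of all genes fell), and Cebpg rose (15.0% rose). The median log2 change of the 10 genes was 0.02 in mutants and -0.62 in controls, against 0.04 and 0.02 over all genes.

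Atf3 in mutants was at 5.12 to 7.70 CPM at E10.5 and at 5.27 to 6.30 CPM at E9.5. Atf3 in controls was at 1.64 to 2.21 CPM at E10.5 and at 4.32 to 6.26 CPM at E9.5. Mutant levels overlapped between these stages for 9 of the 10 genes (over all genes 21.3% lay wholly higher and 18.2% wholly lower at E10.5), and control levels for 3 (22.2% and 16.9%). The control changes were -1.45 ± 0.26 for Atf3 (adjusted p = 0.000697), -0.86 ± 0.14 for Asns (adjusted p = 0.000305) and -0.58 ± 0.11 for Atf4 (adjusted p = 0.00119). The other control falls were in Trib3 (-1.51 ± 0.46), Cebpb (-1.10 ± 0.39) and Atf5 (-0.43 ± 0.12). The rise of Cebpg was 0.25 ± 0.08 (adjusted p = 0.0301).

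The control falls of Atf3, Atf4, Atf5 and Asns held in all 27 alternative fits. That of Cebpb held in 8 and was lost without control E9.5 replicate 1 (-0.70, adjusted p = 0.219). That of Trib3 was lost without E10.5 control replicate 1 (adjusted p = 0.0938) or 3 (0.0738), and the rise of Cebpg was lost in 6 fits, among them the removal of the trend with gene length (0.11, adjusted p = 0.453). Between E10.5 and E11.5 none of the 10 genes was called in either genotype, against 2.89% of all genes in mutants and 9.49% in controls. At an unadjusted p under 0.05 there were 0 in mutants and 1, Ppp1r15a, in controls, and DESeq2 and limma also called 0. Ppp1r15a was at 27.7 CPM in E11.5 control replicate 3, against 20.7 and 20.7 CPM in the other E11.5 controls.

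**Figure D3:**
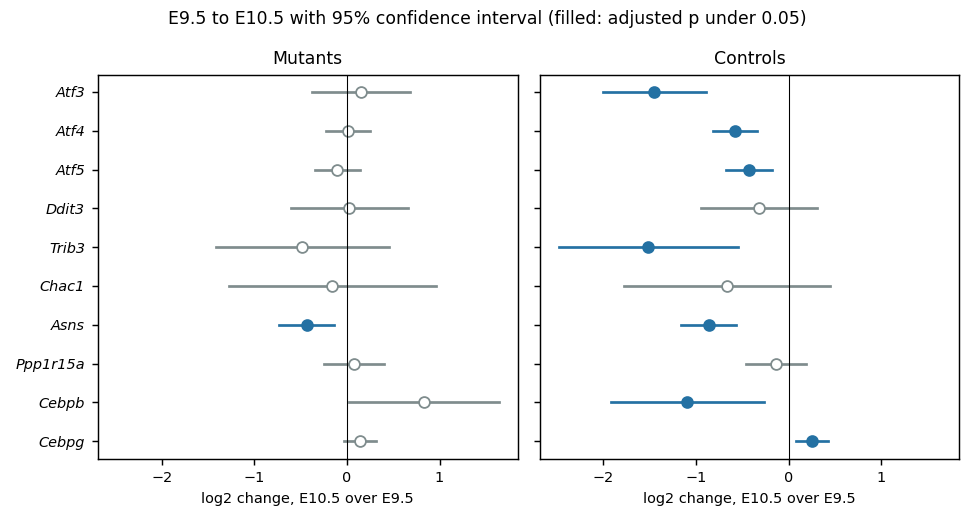
log2 change, E10.5 over E9.5 (horizontal axis), of each of the 10 genes in mutants (left) and controls (right), with 95% confidence intervals, filled where the adjusted p was under 0.05. In controls 6 genes were called below 0 and Cebpg above, and in mutants Asns is the single call.

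The 14 genes upstream of Atf4 were Eif2s1 (an eIF2 subunit) and genes of eIF2 kinases, the exchange factor eIF2B and related regulators. At E9.5 0 of them were called, against 0.184% of all genes. There 1 of the 14 had an unadjusted p under 0.05, and DESeq2 and limma called 0. At E10.5 Eif2b3, an eIF2B subunit gene, rose (0.51 ± 0.13, adjusted p = 0.0142) and Eif2ak2, the gene of the kinase PKR, fell (-0.53 ± 0.16, adjusted p = 0.0368). These were 1 rise and 1 fall among the 14, against 7.3% and 6.63% of all genes. At E11.5 4 rose and 1 fell, against 8.02% and 9.52% of all genes tested, and 8 had an unadjusted p under 0.05, with a median of 0.13. Eif2s1, the gene of the eIF2 subunit that is phosphorylated, rose (0.44 ± 0.10, adjusted p = 0.00607), as did Eif2b3, Eif2b5 and Eif2b2, and Eif2ak2 fell (-0.51 ± 0.16, adjusted p = 0.0385). The E10.5 call of Eif2ak2 was lost without any 1 of the 6 E10.5 libraries, and that of Eif2b3 without E10.5 control replicate 1 or 2 or E10.5 mutant replicate 1 or 3. The 4 rises at E11.5 became 1 without E11.5 control replicate 1 or E11.5 mutant replicate 3, and 2 without any 1 of 12 other libraries.

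Of 27 genes known as ATF4 targets in amino acid supply and stress, 26 were tested. At E9.5 1 rose, where 0.184% of all genes were called in either direction. At E10.5 9 rose and 2 fell (median log2 change 0.42), against 7.3% and 6.63% of all genes. At E11.5 13 rose and 1 fell (median 0.44), against 8.02% and 9.52%. Sesn2, a stress sensor gene that p53 is also known to induce, was at 60.9, 61.0 and 56.9 CPM in E9.5 mutants, against 24.6, 27.2 and 32.7 CPM in E9.5 controls. It was the E9.5 rise (1.08 ± 0.14, adjusted p = 0.000669), and its change was 1.99 ± 0.14 at E10.5 (adjusted p = 1.71e-07) and then 1.54 ± 0.14 in E11.5 buds (adjusted p = 2.23e-06). Slc7a5, a transporter of large neutral amino acids, was at 111.3, 117.1 and 107.6 CPM in E10.5 mutants, against 66.4, 62.6 and 59.1 CPM in E10.5 controls. Slc7a5 rose at both later stages (0.84 ± 0.15, adjusted p = 0.000981, and 0.89 ± 0.15, adjusted p = 0.000520).

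Psat1, an enzyme of serine synthesis, was at 184.7, 202.9 and 219.5 CPM in E11.5 mutants, against 116.8, 102.3 and 96.4 CPM in E11.5 controls (0.94 ± 0.11, adjusted p = 2.05e-05). Mthfd2, an enzyme of mitochondrial folate metabolism, rose at E10.5 (0.64 ± 0.12, adjusted p = 0.00131) and E11.5 (0.96 ± 0.12, adjusted p = 3.88e-05). Mutants and controls did not overlap for either gene at the stages named. Gpt2, an alanine aminotransferase, fell at E10.5, where it was at 58.5, 51.5 and 48.1 CPM in mutants, against 93.1, 99.8 and 99.8 CPM in controls (-0.89 ± 0.11, adjusted p = 6.77e-05). The other falls, named after their values were seen, were the amino acid transporter Slc38a2 at E10.5 (-0.54 ± 0.12, adjusted p = 0.00638) and the proline enzyme Pycr1 at E11.5 (-0.35 ± 0.11, adjusted p = 0.0315). The 9 rises at E10.5 became 5 without E10.5 mutant replicate 3, and the 13 at E11.5 became 7 without E11.5 control replicate 1 and 8 without replicate 2. Between E9.5 and E10.5, 5 of these 26 genes fell in mutants and 12 in controls, against 4.4% and 12.5% of all genes. In controls 3 rose, against 15.0% of all genes. In mutants 2 rose, and the share of all genes rising there is not given here, so these 2 have no background.

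Of 12 cytosolic tRNA synthetase genes, which charge tRNAs with amino acids, 0 were called at E9.5 (0 at an unadjusted p under 0.05, and 0 by DESeq2 and limma) and Yars rose at E10.5 (0.36 ± 0.11, adjusted p = 0.0339), a call lost without any 1 of the 6 E10.5 libraries. Over all genes 0.184% were called in either direction at E9.5, and 7.3% rose at E10.5. At E11.5 6 of the 12 rose and none fell, against 8.02% and 9.52% of all genes, with a list median of 0.35. The leading one, Cars, was at 61.9, 77.1 and 67.4 CPM in E11.5 mutants, against 46.8, 44.2 and 43.9 CPM in E11.5 controls (0.61 ± 0.09, adjusted p = 0.000299). Nars (0.41 ± 0.09), Yars (0.51 ± 0.11) and Mars (0.47 ± 0.10) followed, and the E11.5 mutants lay above the controls for Cars in every library. Between E9.5 and E10.5, 8 of the 12 fell in mutants and 11 in controls, against 4.4% and 12.5% of all genes.

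**Figure D4:**
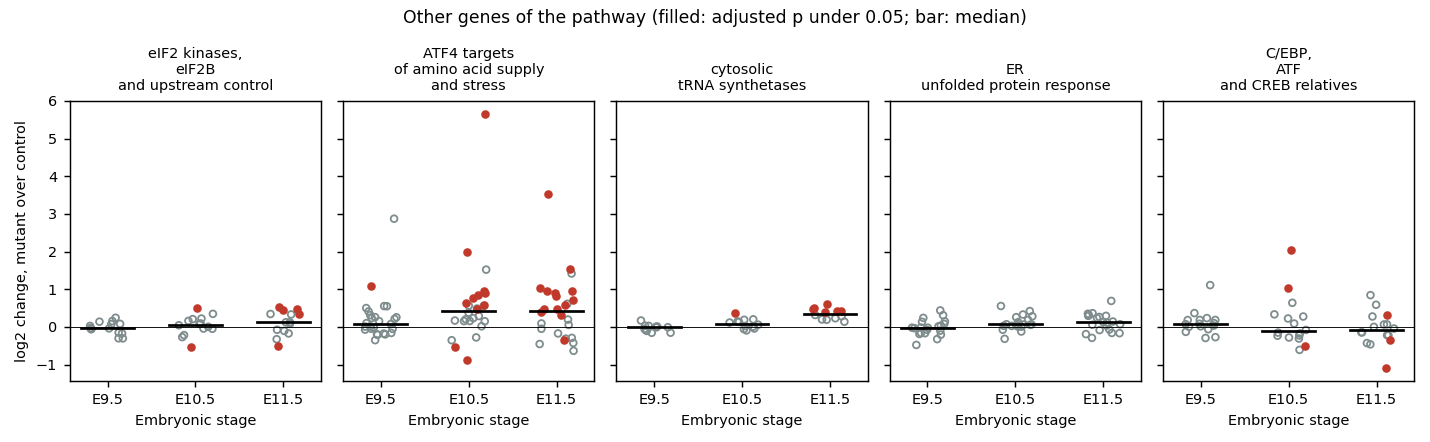
log2 change, mutant over control (vertical axis), of the genes of 5 lists around the pathway at the 3 stages, 1 point per gene, filled in red where the adjusted p was under 0.05, with the list median as a bar. The ATF4 target list has 9 rises and 2 falls at E10.5 and 13 rises and 1 fall at E11.5, the tRNA synthetases have 6 rises at E11.5, and the ER list has none.

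The 20 genes of the endoplasmic reticulum (ER) unfolded protein response belong to a neighbouring branch that shares ATF4 downstream of the kinase PERK. Of these, edgeR called 0 at every stage, against 0.184%, 13.9% and 17.5% of all genes in stage order. The list medians in stage order were -0.02, 0.07 and 0.12, and 1, 2 and 5 listed genes had an unadjusted p under 0.05. DESeq2 called 0, 0 and 3 of them, all higher in mutants, and limma on the authors' values called 0, 0 and 3. With each stage fitted alone, 6 were called higher and 1 lower at E10.5 and 5 higher and 1 lower at E11.5. With the label number as a block, 2 were called higher and 1 lower at E10.5 and 4 higher and 1 lower at E11.5. The shares of all genes called in these alternative fits are not given here, so their counts cannot be set against a background. Over all genes, the stage fitted alone also called more at E10.5 than the main fit did. Hspa5, the ER chaperone BiP, was at 827.8, 831.3 and 719.4 CPM in E11.5 mutants, against 624.8, 725.2 and 803.0 CPM in E11.5 controls, and the groups overlapped. Hspa5 is named as the field's usual marker of this response, after its values were seen.

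Of 16 tested relatives of the C/EBP, ATF, CREB and Trib families, 0 were called at E9.5, against 0.184% of all genes. There 2 of the 16 had an unadjusted p under 0.05, and DESeq2 called 1. At E10.5 Creb3l1, a membrane-bound bZIP factor, was at 8.09, 8.20 and 7.26 CPM in mutants, against 2.11, 1.20 and 2.41 CPM in controls, and rose by 2.04 ± 0.31 (adjusted p = 0.000291). Cebpa also rose (1.04 ± 0.27, adjusted p = 0.0168) and Nfil3 fell (-0.51 ± 0.14, adjusted p = 0.0239). These were 2 rises and 1 fall among the 16, against 7.3% and 6.63% of all genes. At E11.5 Atf1 rose (0.32 ± 0.08) and Creb3l2 (-1.09 ± 0.22) and Trib2 (-0.35 ± 0.11) fell, against 8.02% and 9.52% of all genes. The medians of the list were -0.11 and -0.09. With 1 library left out there were 1 to 4 rises and 0 to 4 falls at E10.5, and 0 to 2 rises and 1 to 4 falls at E11.5. Each count of 4 was reached without control E9.5 replicate 1.

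Other gene groups moved beside Atf3 and Cebpb. Of 15 immediate early genes, to which Atf3 is often counted and which can respond to handling, 0 were called at E9.5, against 0.184% of all genes. At that stage 1 of the 15 had an unadjusted p under 0.05, and DESeq2 called 1. At E10.5 4 rose and none fell, against 7.3% and 6.63% of all genes, with a list median of 1.13. The 4 were Fosl1 (5.05 ± 0.58, adjusted p = 2.24e-05), Egr3, Junb and Egr1, with 7 rises without control E9.5 replicate 1. With libraries left out, calls over all genes ran from 1473 to 5333 at E10.5 (2802 with all libraries) and from 2188 to 5976 at E11.5 (3529). The share of all genes in each single refit is not given here. At E11.5 Fosl1 rose and Klf4 and Fosb fell, against 8.02% and 9.52% of all genes, with a list median of -0.35. Egr1 was at 58.1 CPM in E11.5 control replicate 3, against 2.51 and 5.53 CPM in the other E11.5 controls. Atf3, Cebpb and Ppp1r15a were also highest among E11.5 controls in that library. Without it, 4 immediate early genes rose and none fell at E11.5, and the E11.5 log2 changes were 2.34 for Atf3 and 1.69 for Cebpb (adjusted p = 3.38e-05 and 0.0173). Of 18 p53 targets, 8 rose at E9.5, where 0.184% of all genes were called in either direction. At E10.5 15 of them rose (7.3% of all genes), and at E11.5, with Sesn1 falling, 13 rose (8.02%). Cdkn1a, the gene of the cell cycle inhibitor p21, had log2 changes of 2.38, 3.00 and 2.12 at the 3 stages. The part of these groups in the results for Atf3 and Cebpb was not tested.

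Marker genes of cell types moved too, and in bulk tissue fewer cells of a type and less RNA per cell cannot be told apart. The marker counts here and in the next paragraph stand against 7.3% of all genes rising and 6.63% falling at E10.5. At E11.5 the shares were 8.02% and 9.52%. The summed level of 8 limb mesenchyme markers was 855 to 1108 CPM in E10.5 mutants, against 1760 to 1803 CPM in E10.5 controls, and 853 to 1095 CPM in E11.5 mutants, against 2033 to 2057 CPM in E11.5 controls. Tbx5, Prrx1, Pdgfra, Meox2 and Lmx1b fell at both stages and Prrx2 at E11.5. Of 14 surface ectoderm markers 13 and 11 rose, with sums of 792 to 1172 CPM in E10.5 mutants, against 406 to 592 CPM in E10.5 controls. At E11.5 the ectoderm sums were 810 to 1033 CPM in mutants, against 409 to 683 CPM in controls. With 1 library left out the ectoderm rises numbered as few as 6 at E10.5 (without control replicate 1 or mutant replicate 3 of that stage) and 2 at E11.5 (without mutant replicate 3 of that stage).

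Of 13 macrophage markers 5 rose at E10.5 and 10 did at E11.5, with sums of 50.3 to 85.9 CPM in E10.5 mutants, against 28.2 to 38.1 CPM in E10.5 controls, and of 128 to 259 CPM in E11.5 mutants, against 57.0 to 68.8 CPM in E11.5 controls. Of 12 erythroid markers 8 rose at E10.5 and 0 were called at E11.5 (0 at an unadjusted p under 0.05), with sums of 6409 to 20132 CPM in E10.5 mutants, against 2999 to 6204 CPM in E10.5 controls. Without E10.5 mutant replicate 3, 0 erythroid markers were called at E10.5. Of 12 endothelial markers Eng, Esam, Emcn, Tie1 and Egfl7 rose at E10.5, and Eng and Emcn at E11.5, with as few as 1 at either stage when 1 library was left out. The macrophage rises became 1 without E10.5 control replicate 1 or 3 or E10.5 mutant replicate 2 and 3 without E10.5 control replicate 2 at E10.5, and 5 without E11.5 mutant replicate 1 at E11.5. With the label number as a block, 7 ectoderm and 1 erythroid markers rose at E10.5 and 1 macrophage marker and 0 endothelial markers rose at E11.5. No marker of these lists was at 0 throughout a group. At E9.5 no marker of any of the 5 lists was called, against 0.184% of all genes in either direction. At an unadjusted p under 0.05 there were 0, 2, 0, 1 and 3 of the mesenchyme, ectoderm, erythroid, macrophage and endothelial markers. The part of cell makeup in the changes of Atf3, Atf4, Asns and Cebpb was not tested.

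**Figure D5:**
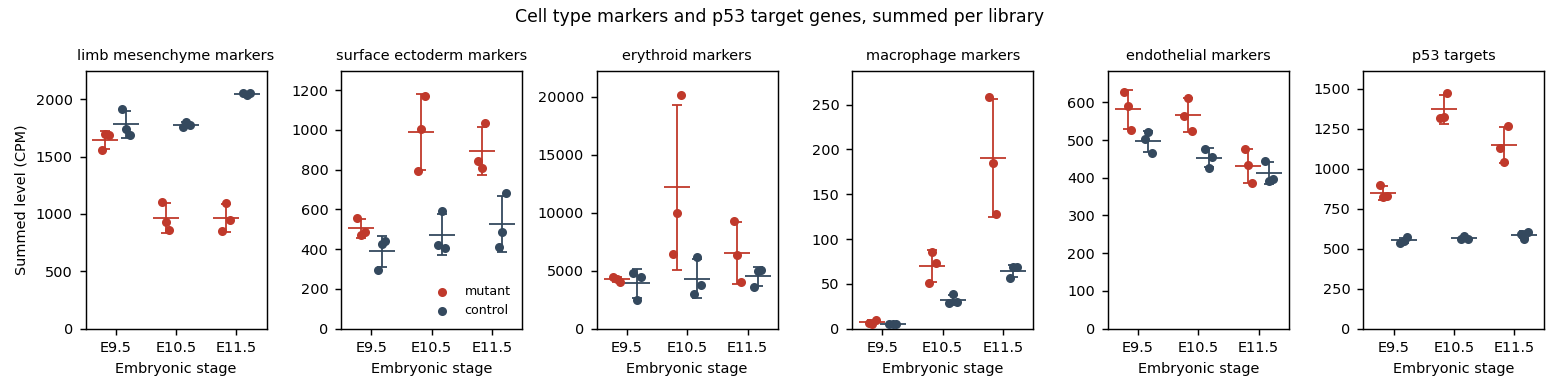
Summed level in CPM (vertical axes, each from 0) of 5 lists of cell type markers and of 18 p53 targets in each library at the 3 stages, mutants in red left of controls in dark blue, with group mean and SD. Mesenchyme sums are lower and ectoderm, macrophage and p53 target sums higher in every E10.5 and E11.5 mutant than in the controls of the same stage, and 1 E10.5 mutant has the highest erythroid sum.

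The genes most like the 4 called genes were sought by Pearson's r of log2 CPM over the 18 libraries, which share stage, genotype and scaling. For Atf3 they were Pdgfa (r = 0.919), Sct (0.917) and Kmt5a (0.893). For Cebpb they were Lamp1 (0.891), Ccnd3 (0.885) and Acaa2 (0.875). For Atf4 they were Akr1b3 (0.974), Npm3 (0.969) and Tomm40 (0.967), and for Asns Cct3 (0.976), Npm1 (0.975) and Shmt2 (0.970). Shmt2, a mitochondrial serine enzyme, was itself on the ATF4 target list, and none of the other 11 was on any list.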

How the data were processed

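RNA sequencing of 18 forelimb bud libraries was analysed. The submitters' processing notes name cutadapt, STAR, featureCounts and limma on mm10. Per the file headers, the deposited gene counts came from reverse-stranded, paired-end featureCounts 1.6.4 over exons of GENCODE M22, which by default skips multi-mapping pairs and pairs shared by genes on 1 strand. The authors also deposited log2 FPKM values for 14692 genes, with no stated normalization, which served only as an alternative. Symbols came from a GENCODE M21 table (55394 of 55487 identifiers matched).

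Counts were used as deposited in edgeR 4.0.16 (R 4.3.3) with filterByExpr (20118 genes kept), TMM scaling and 1 robust quasi-likelihood fit of 6 groups (12 residual degrees of freedom), with Benjamini-Hochberg adjustment over all genes of a contrast and a threshold of 0.05. The common biological coefficient of variation was 0.231. Alternatives were DESeq2 1.42.0, its size factors, no filter, a replicate block, removal of the length trend, limma 3.58.1 on log2 FPKM, stages fitted alone and libraries left out. Chosen after seeing the data were limma-voom, limma-voom with the identifiers' first number as a random block, and edgeR with that number as a fixed block in the 10 libraries that share it (3 residual degrees of freedom). The 10 genes, 13 lists (192 genes) and naming rule were chosen with earlier results of these data known. The rule named all 10 genes, up to 4 genes per other list and stage with the smallest adjusted p, and the 3 most correlated genes for each called gene. Genes named beyond it, where 5 or fewer passed, were named after their values were seen.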

Additional observations from a re-analysis of the deposited data

Results flagged for a closer look

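A difference in the mutant effect between stages, tested by interaction contrasts in edgeR's fit, brought 4 results forward. The mutant effect on Atf3 was larger at E10.5 than at E9.5 by 1.599 log2 units (adjusted p = 0.0302) and larger at E11.5 than at E9.5 by 1.727 (adjusted p = 0.0116). For Atf4 the effect was larger at E11.5 than at E9.5 by 0.656 (adjusted p = 0.0227), and for Asns by 0.729 (adjusted p = 0.0391). Over the 28 alternatives, the Atf3 difference at E11.5 was called in 27, that of Atf4 in 24, the Atf3 difference at E10.5 in 19 and that of Asns in 14.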

How the results depend on the processing

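Of 279 recounts of the 10 genes called in a contrast, 246 stayed within 1.5 times the reported count. At E10.5 the count was 6 with each stage fitted alone, against 3, where Atf5, Asns and Trib3 were added. For the mutant effect at E10.5 minus that at E9.5 it was 3 with DESeq2 and 0 without both libraries that stood apart, against 1. For E10.5 over E9.5 in mutants it was 0 with limma on log2 FPKM, against 1. With 1 library left out, mutant against control gave 0 to 0 calls at E9.5, 2 to 4 at E10.5 and 2 to 4 at E11.5, where the 2 came without control E11.5 replicate 2. The interactions gave 0 to 4 (E10.5 minus E9.5), 1 to 4 (E11.5 minus E9.5) and 0 to 0 (E11.5 minus E10.5). E10.5 over E9.5 gave 0 to 1 in mutants and 4 to 7 in controls, the 4 without control E10.5 replicate 3, and E11.5 over E10.5 gave 0 to 0 in either genotype. The cause of these moves was not tested.

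None of the 19 called values of single genes reversed in 531 refits, and 83 refits lost the call. Values that reversed were all uncalled. At E9.5 values with 1 library left out ran from -0.233 to 0.006 for Atf5, -0.427 to 0.144 for Ddit3, -0.317 to 0.030 for Asns, -0.174 to 0.041 for Ppp1r15a, -0.448 to 0.208 for Cebpb and -0.090 to 0.036 for Cebpg. The upper ends of Atf5 (0.006), Ddit3 (0.144), Asns (0.030) and Cebpb (0.208) came without control E9.5 replicate 1 and stood likewise without both libraries that stood apart, where Ppp1r15a was at 0.035 and Cebpg at 0.006. At E10.5 values ran from -0.014 to 0.235 for Ddit3 (-0.023 without both libraries) and from -0.121 to 0.857 for Chac1. At E11.5 they ran from -0.188 to 0.187 for Ddit3 (0.002 with log2 FPKM) and from -0.154 to 0.991 for Trib3.

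Deviations of mutant and control libraries with the same replicate number correlated at -0.148 to 0.184. In stage order, 5, 4 and 1 of 6 libraries correlated best with their own replicate number. These values do not settle whether the replicate numbers pair the libraries. With the number as a replicate block, the fall of Cebpb in controls was lost (adjusted p = 0.0515), leaving 6 calls there instead of 7, and the counts of calls in the mutant contrasts stayed at 0, 3 and 4.

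The first number of the label identifiers, a choice made after seeing the data, was shared by 6 pairs of libraries across genotypes, whose deviations correlated at -0.128 to 0.26, against -0.214 to 0.184 in 21 pairs of a stage with no shared number. As a random block in limma-voom (correlation 0.299) it left 0, 3 and 4 calls in the mutant contrasts, as did limma-voom without it. As a fixed block in edgeR, where E9.5 and E11.5 each rest on 1 pair across genotypes, the counts were 0, 3 and 2, the 2 at E11.5 against 4, and both interactions with E9.5 had 0, against 1 and 3. Uncalled values then changed sign at E9.5 for Atf4 (0.101), Atf5 (0.141), Ddit3 (0.350), Chac1 (0.525), Asns (0.253), Ppp1r15a (0.146) and Cebpb (0.398), at E10.5 for Ddit3 (-0.048) and Chac1 (-0.238) and at E11.5 for Atf5 (-0.046) and Trib3 (-0.672). Over all genes the interactions had 75 (E10.5 minus E9.5), 26 (E11.5 minus E10.5) and 409 (E11.5 minus E9.5) calls there, and E11.5 minus E10.5 had 7 in limma-voom.

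Over all genes the calls at E9.5 were 37, against 128 with DESeq2 and 5 with the stage fitted alone, and at E10.5 2802, against 6337 with the stage fitted alone. With DESeq2 the interactions had 1355 calls (E10.5 minus E9.5, against 446), 172 (E11.5 minus E10.5, against 15, and 9 with log2 FPKM) and 2452 (E11.5 minus E9.5, against 1291), and E11.5 over E10.5 in mutants had 1057, against 581. With libraries left out, mutant against control had 30 to 63, 1473 to 5333 and 2188 to 5976 calls at the 3 stages. The interactions in the same order had 124 to 2510, 0 to 64 and 479 to 3339. The stage contrasts from E9.5 to E10.5 had 1631 to 4855 in mutants and 3644 to 6939 in controls (2824 and 5523 with all libraries), and from E10.5 to E11.5 231 to 1277 in mutants and 694 to 3762 in controls (581 and 1910). Chac1 had the fewest counts of the 10 genes, 408 over the 18 libraries.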
